A study of Homo sapiens with 12 samples.

Results

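The genes described here are 6 genes of the MHC class II pathway, HLA-DPA1, HLA-DPB1, HLA-DMA, HLA-DMB, HLA-DOA and CIITA, out of 18417 genes measured on the same arrays. They are the measured members of a set of 8 that also held HLA-DRA and CD74. The set was listed by gene name with earlier results of these data known, so its counts describe it and do not test it. A gene counted as measured when the platform annotation gave it at least 1 array feature of its own, and of several such features the brightest by its mean level on the 12 arrays stood for the gene. HLA-DRA and CD74 were not measured in this sense. All 3 features that name HLA-DRA also name HLA-DQA1, and the only feature that names CD74 (1 feature) also names ROS1, so their signal cannot be assigned to 1 gene.

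MHC class II molecules are surface proteins, each made of an alpha and a beta chain, that present peptides from endosomes to CD4+ T cells. HLA-DPA1 and HLA-DPB1 encode the chains of HLA-DP and HLA-DRA the alpha chain of HLA-DR, while CD74, the invariant chain, guides new class II molecules to the endosome and blocks their groove. HLA-DMA and HLA-DMB together form HLA-DM, which removes the last fragment of the invariant chain and loads peptides, HLA-DOA is the alpha chain of HLA-DO, which restrains HLA-DM, and CIITA is the co-activator that switches class II genes on. Professional antigen presenting cells make these proteins all the time, whereas most epithelial tumour cells make little of them unless interferon gamma induces CIITA.

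RNA came from MDA-MB-231, an established human breast cancer line that lacks oestrogen receptor, progesterone receptor and HER2 amplification. The 4 groups of 3 arrays were parental cells without treatment, parental cells given TRAIL (a death ligand of the TNF family) at 100 ng per ml for 2 hours, cells treated until resistant (TTR) without further treatment, and TTR cells given TRAIL in the same way. The labels name neither the agent that made TTR cells resistant nor whether they are 1 clone, and they do not say that the 3 arrays of a group came from separate cultures, so every p-value here reflects no more than how far these arrays scattered. An unexplained tag in the sample descriptions also differs between the lines, and its meaning and the line cannot be told apart.

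Values are log2 levels, relative to the rest of each array and with no detection call, so a low level can be background. Over all features the array medians were 4.24 to 4.31 in both untreated groups, 4.38 to 4.40 in TTR cells with TRAIL and 4.58 to 4.61 in parental cells with TRAIL. The last group stood apart, with correlations of 0.921 to 0.963 with arrays of other groups against 0.984 to 0.992 among the other groups. Where centring each array on its median, or a further quantile normalization, changed the call of 1 of the 6 genes in a comparison with this group, that value is given too. The mesenchymal markers of the line (7 measured of 7 listed) averaged 9.27 to 10.1 per array. The receptor genes ESR1 and PGR had group means of 3.55 to 3.77 and 2.38 to 2.77. The luminal and epithelial markers that include them (9 measured of 9 listed) averaged 5.89 to 6.07 per array. Markers of B cells, T cells and myeloid cells, which make class II proteins or accompany cells that do, averaged 3.33 to 3.41 in untreated parental cells and 3.28 to 3.31 in untreated TTR cells (26 measured of 27 listed).

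The promoters are shown because class II genes share an arrangement of promoter boxes to which the RFX complex, CREB and NF-Y bind and which CIITA reads. The RefSeq table of assembly GRCh38.p14 held promoters for 6 of the 8 genes, all but HLA-DRA and CIITA. Each line gives the 120 bases before the start site, 5′ to 3′ in the direction of the gene. Capitals mark the letters ATTGG, the core that NF-Y binds, on either strand (CCAAT on the printed one), and the letters ACNGA where they begin 27 to 31 bases before ATTGG. The letters ACNGA and this spacing were set after the promoters had been read.
HLA-DMA, chr6:32953098-32953217, minus strand: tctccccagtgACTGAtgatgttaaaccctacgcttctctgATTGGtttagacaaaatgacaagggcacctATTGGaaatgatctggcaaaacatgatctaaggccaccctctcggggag
HLA-DMB, chr6:32941029-32941148, minus strand: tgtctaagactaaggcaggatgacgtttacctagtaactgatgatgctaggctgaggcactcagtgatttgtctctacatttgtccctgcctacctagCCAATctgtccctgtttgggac
HLA-DPB1, chr6:33075870-33075989, plus strand: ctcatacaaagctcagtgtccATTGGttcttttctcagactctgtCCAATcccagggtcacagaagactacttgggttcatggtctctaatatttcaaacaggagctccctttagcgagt
HLA-DOA, chr6:33009592-33009711, minus strand: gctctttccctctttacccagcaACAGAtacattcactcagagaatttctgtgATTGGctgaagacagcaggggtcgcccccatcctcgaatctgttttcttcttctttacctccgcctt
CD74, chr5:150412911-150413030, minus strand: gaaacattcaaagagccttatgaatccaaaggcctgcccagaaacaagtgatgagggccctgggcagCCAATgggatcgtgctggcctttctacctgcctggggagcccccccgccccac
In the 250 bases before the start, ATTGG on either strand was in promoters of 5 of these 6 genes and in 32.0% of the 35116 promoters searched. HLA-DPA1, whose 2 entries are not printed, had none of these exact letters. Variants of the letters were not searched for, so an unmarked stretch can still hold a box. The spaced pair of ACNGA and ATTGG was in 2 of the 6 genes and in 0.607% of all promoters. In HLA-DMA and HLA-DOA it began 109 and 97 bases before the start. Because the pair was set after the promoters had been read, setting these shares side by side tests nothing. The pair is a match of letters. Between the untreated lines HLA-DMA passed limma's test and HLA-DOA did not, and the part of the pair in their levels was not tested.

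Without TRAIL, TTR cells had higher levels of HLA-DM and HLA-DP transcripts than parental cells. In limma's test over all genes, called at an adjusted p under 0.05, HLA-DMA, HLA-DMB, HLA-DPA1 and HLA-DPB1 were higher, by 0.48 to 1.00 on the log2 scale, while HLA-DOA and CIITA did not pass. That was 4 of 6 genes higher and 0 lower, where 3.64% of all genes were higher and 3.47% lower. The median difference was 0.58 for the 6 genes and -0.013 for all genes. Of 4 measured class II chain genes outside the set, HLA-DQA1, HLA-DQB1, HLA-DRB5 and HLA-DOB, 0 were higher and 0 lower. Their median difference was 0.054, at levels averaging 2.98 to 3.01 on untreated parental arrays. HLA-DOB, the beta chain of HLA-DO, differed by -0.20 (adjusted p 0.437).

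**Figure D1:**
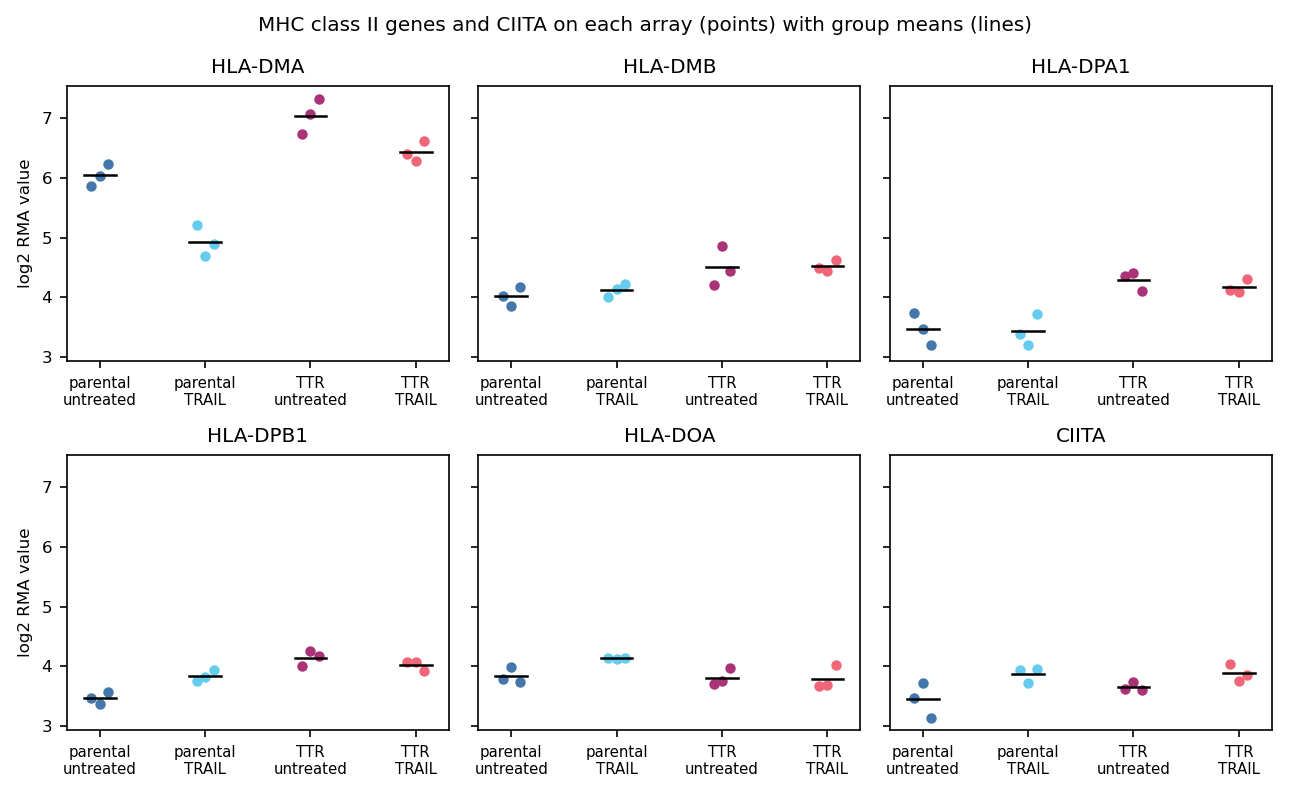
Log2 level (RMA value, vertical axis) of the 6 measured genes on each of the 12 arrays, by group (horizontal axis). Points are arrays and lines are means of 3 arrays; HLA-DMA lies lowest in parental cells with TRAIL, at 4.69 to 5.20, and highest in untreated TTR cells, at 6.73 to 7.32.

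HLA-DMA, the alpha chain of the peptide loader, read 5.86, 6.03 and 6.22 on the untreated parental arrays and 6.73, 7.06 and 7.32 on the untreated TTR arrays. Every TTR array was above every parental one. The means were 6.04 ± 0.18 and 7.04 ± 0.30 (SD, n = 3 each), and the difference of 1.00 ± 0.16 (standard error) is 2.00-fold with an adjusted p of 8.44e-04. It stayed called under all 23 alternatives tried, with differences of 0.86 to 1.15.

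HLA-DMB, its beta chain, read 4.03, 3.86 and 4.17 in parental cells and 4.21, 4.85 and 4.45 in TTR cells. The groups did not overlap, but the highest parental and lowest TTR arrays were next to each other. The difference was 0.48 ± 0.14, or 1.40-fold, with an adjusted p of 0.0454 in limma. This call was lost under 14 of 23 alternatives, in which the adjusted p ranged from 0.00261 to 0.228 over all 23. Leaving out TTR untreated array 2 gave a difference of 0.31 (adjusted p 0.228), and the call was also lost without array 1 (adjusted p 0.119), 2 (0.185) or 3 (0.0515) of untreated parental cells, array 3 of untreated TTR cells (0.0787), array 2 of parental cells with TRAIL (0.0504), or array 1 (0.0617), 2 (0.0617) or 3 (0.0545) of TTR cells with TRAIL.

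HLA-DPA1, the alpha chain of HLA-DP, read 3.73, 3.48 and 3.21 in parental cells and 4.36, 4.40 and 4.11 in TTR cells. The lowest TTR array was above the highest parental array. The difference was 0.82 ± 0.15, 1.76-fold, with an adjusted p of 0.00239. HLA-DPB1, the beta chain, read 3.47, 3.38 and 3.57 in parental cells and 4.01, 4.25 and 4.17 in TTR cells. Its 2 groups were separate as well. The difference was 0.67 ± 0.10, 1.59-fold, with an adjusted p of 5.59e-04, and both HLA-DP genes stayed called under every alternative in which they were tested (22 for HLA-DPA1, 23 for HLA-DPB1). Whether the parental levels of HLA-DMB, HLA-DPA1 and HLA-DPB1 lie above background was not tested, and where they do not, the fold is a lower bound.

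HLA-DOA, the HLA-DM inhibitor chain, read 3.79, 3.99 and 3.74 in parental cells against 3.71, 3.76 and 3.97 in TTR cells, with overlapping groups. Its difference was -0.026 ± 0.11 (adjusted p 0.946). CIITA read 3.48, 3.73 and 3.15 in parental cells and 3.62, 3.75 and 3.61 in TTR cells. The groups overlapped, with 1 parental array above 2 of the TTR arrays. The difference of 0.21 ± 0.13 had an adjusted p of 0.45, which does not show that CIITA was the same in both lines.

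Further single-gene features read the 4 genes that were higher again on the same arrays, which is not independent evidence. With every feature of the table tested, the other HLA-DMA feature with its own values was 0.99 higher (adjusted p 0.00786) and the other HLA-DPA1 values, which 2 features share, were 0.87 higher (adjusted p 0.0137). The other HLA-DPB1 features were 0.75 higher (adjusted p 0.00422) and 0.63 higher (adjusted p 0.137), and the other HLA-DMB feature was 0.54 higher (adjusted p 0.0671). The HLA-DMB feature that stood for the gene did not pass in this fit either (adjusted p 0.115). The difference of the other HLA-DOA feature was 0.011 (adjusted p 0.986).

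The features that name HLA-DRA or CD74 together with other genes showed larger differences between the untreated lines than any of the 6 genes. They are reported as features, because the annotation does not say which gene gave the signal. The feature annotated to CD74 and ROS1 read 6.45, 6.37 and 6.36 on untreated parental arrays and 8.24, 7.95 and 7.72 on untreated TTR arrays. The groups lay far apart, with a difference of 1.58 ± 0.14, or 2.98-fold (adjusted p 8.05e-05, limma over every feature, of which 1.49% were higher). The brightest of the 3 features annotated to HLA-DRA and HLA-DQA1 lay at 4.39 to 4.80 in parental cells and at 6.96 to 7.12 in TTR cells. It was 2.37 ± 0.13 higher, 5.17-fold (adjusted p 2.72e-06), and the other 2 were 1.95 and 2.05 higher. A feature annotated to HLA-DQA1 alone differed by -0.052 ± 0.12 (adjusted p 0.883 over genes).

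The beta chains of HLA-DR were read by shared features and, for HLA-DRB5, also by a feature of its own. The 3 features annotated to HLA-DRB1, HLA-DRB3, HLA-DRB4, HLA-DRB5, HLA-DRB6 and HLA-DQB1 were 2.44, 2.37 and 2.31 higher in untreated TTR cells. The first of them read 4.59, 4.15 and 4.70 in parental cells and 6.52, 6.96 and 7.29 in TTR cells, with no overlap. A further shared feature, annotated to HLA-DRB1 and HLA-DQB1, had low levels of 2.76 to 2.80 in parental and 2.50 to 2.74 in TTR cells, with every TTR array below every parental one and a difference of -0.19 ± 0.088 that did not pass (adjusted p 0.383). Features annotated to HLA-DQB1 alone and to HLA-DRB5 alone differed by 0.16 ± 0.11 (adjusted p 0.495) and 0.24 ± 0.094 (adjusted p 0.163), below the threshold. Shared features annotated to HLA-DQA2 and HLA-DQA1, or to HLA-DQB2 and HLA-DQB1, differed by -0.080 to 0.15. None of them passed (adjusted p 0.634 to 0.992, limma over every feature). The differences of the 7 shared features that passed stayed called when any 1 of the 12 arrays was left out, with a highest adjusted p of 8.9e-04.

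**Figure D2:**
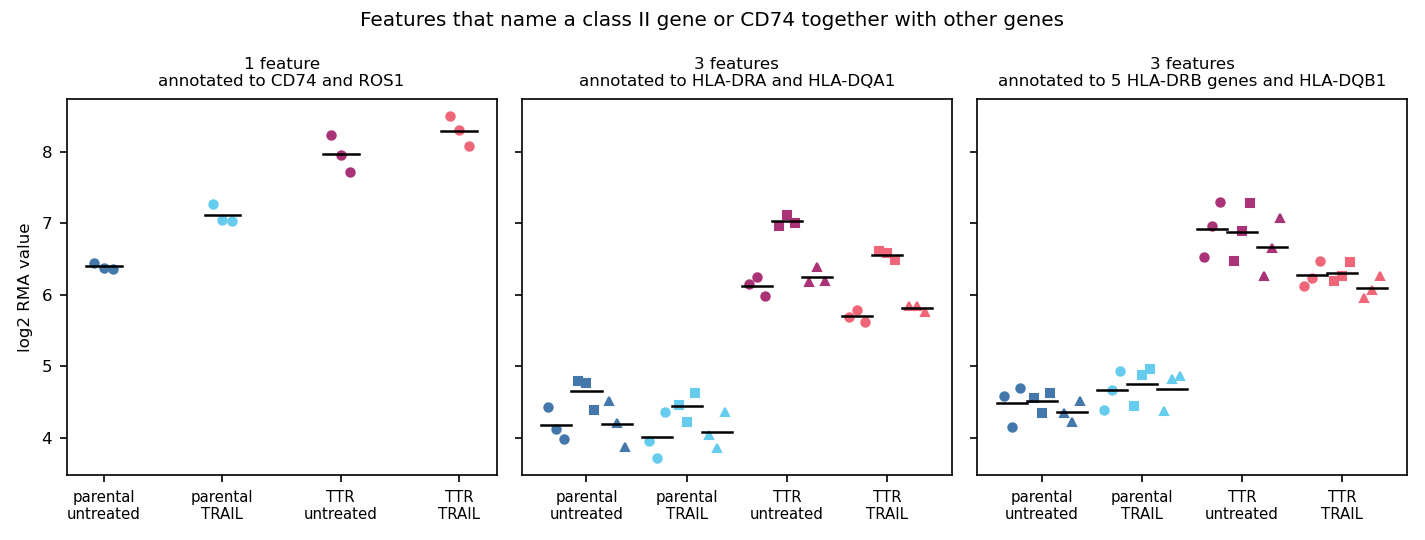
Log2 level (RMA value, vertical axis) on each array, by group (horizontal axis), of features annotated to several genes. Points are arrays, marker shapes are different features and lines are means of 3 arrays; all TTR arrays lie above all parental arrays in each panel, as for the feature annotated to CD74 and ROS1, at 7.72 to 8.50 against 6.36 to 7.27.

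With TRAIL in both lines, HLA-DMA, HLA-DMB and HLA-DPA1 were again higher in TTR cells, and HLA-DOA was lower. This is a comparison against the parental arrays that stood apart, and 28.0% of all genes were higher and 26.4% lower in it, so 3 of 6 higher and 1 of 6 lower is set against a high background. HLA-DMA read 5.20, 4.69 and 4.89 in parental cells and 6.40, 6.28 and 6.61 in TTR cells. Every TTR array exceeded the parental ones by more than 1 log2 unit. The difference was 1.51 ± 0.16, 2.84-fold, with an adjusted p of 5.46e-07.

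HLA-DPA1 read 3.39, 3.20 and 3.72 in parental and 4.13, 4.08 and 4.31 in TTR cells with TRAIL. Its groups were separate, with a difference of 0.74 ± 0.15 (adjusted p 4.56e-04). HLA-DMB read 4.01, 4.13 and 4.23 in parental and 4.49, 4.44 and 4.62 in TTR cells. It was 0.39 ± 0.14 higher (adjusted p 0.0252), a call lost without array 1 (adjusted p 0.0846) or 2 (0.052) of parental cells with TRAIL, or without array 3 of TTR cells with TRAIL (0.0878).

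HLA-DPB1 read 3.75, 3.82 and 3.94 in parental and 4.08, 4.08 and 3.92 in TTR cells with TRAIL, so the groups overlapped. Its difference was 0.19 ± 0.10 (adjusted p 0.128). With each array centred on its median it was 0.39 and passed (adjusted p 0.00454), as it did after a further quantile normalization (0.39, adjusted p 0.00427).

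HLA-DOA read 4.14, 4.12 and 4.15 in parental and 3.67, 3.70 and 4.03 in TTR cells with TRAIL. All TTR arrays were lower, by -0.34 ± 0.11 (adjusted p 0.0201). The call was lost after centring (-0.13, adjusted p 0.362), after quantile normalization (-0.11, 0.475), with the mean of both HLA-DOA features (-0.25, 0.0727), and without array 1 (0.0911) or 2 (0.0851) of TTR cells with TRAIL. CIITA read 3.94, 3.72 and 3.96 in parental and 4.04, 3.75 and 3.85 in TTR cells with TRAIL, with overlapping groups and a difference of 0.011 ± 0.13 (adjusted p 0.948). The feature annotated to CD74 and ROS1 was 1.18 ± 0.14 higher (adjusted p 2.17e-05), the 3 naming HLA-DRA were 1.69 to 2.12 higher and the 3 naming HLA-DRB genes 1.42 to 1.61 higher, where 19.8% of all features were higher.

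In parental cells, 2 hours of TRAIL went with a lower level of HLA-DMA. The arrays listed above fell from 5.86 to 6.22 before TRAIL to 4.69 to 5.20 with it, without overlap. The mean fell by 1.11 ± 0.16 on the log2 scale, 2.16-fold, with an adjusted p of 1.24e-05, and the fall stayed called under all 22 alternatives, at -1.40 to -0.99. It was the only 1 of the 6 genes called lower. In this comparison 29.9% of all genes were lower and 28.9% higher.

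HLA-DPB1, HLA-DOA and CIITA passed in the other direction in parental cells given TRAIL, by 0.36 ± 0.10 (adjusted p 0.0051), 0.29 ± 0.11 (adjusted p 0.0359) and 0.42 ± 0.13 (adjusted p 0.0116). The groups were separate for HLA-DPB1 and HLA-DOA and overlapped for CIITA. The mean of the array medians was 4.59 in parental cells with TRAIL and 4.30 without, and its part in these rises was not tested otherwise than by rescaling. With each array centred on its median the 3 differences were 0.073, 0.0039 and 0.13, and after quantile normalization 0.097, 0.0099 and 0.16, and none of them passed. The HLA-DOA call was also lost with the mean of both its features (adjusted p 0.0727), with array weights (0.0549), and without array 1 (0.1) or 3 (0.123) of untreated parental cells or array 1 (0.0686), 2 (0.0593) or 3 (0.0705) of parental cells with TRAIL, and the CIITA call without untreated parental array 3 (0.268, adjusted p 0.0804).

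HLA-DMB and HLA-DPA1 did not pass in parental cells given TRAIL, with differences of 0.11 ± 0.14 (adjusted p 0.533) and -0.034 ± 0.15 (adjusted p 0.859). The feature annotated to CD74 and ROS1 went from 6.36 to 6.45 without TRAIL to 7.03 to 7.27 with it. It rose by 0.72 ± 0.14 (adjusted p 8.2e-04), by 0.43 after centring (adjusted p 0.0211) and by 0.89 after quantile normalization (adjusted p 1.2e-04), where 30.1% of all features were higher. None of the 3 features naming HLA-DRA passed (-0.21 to -0.11), although 2 of them did after centring, at -0.46 (adjusted p 0.0343) and -0.50 (adjusted p 0.00737).

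**Figure D3:**
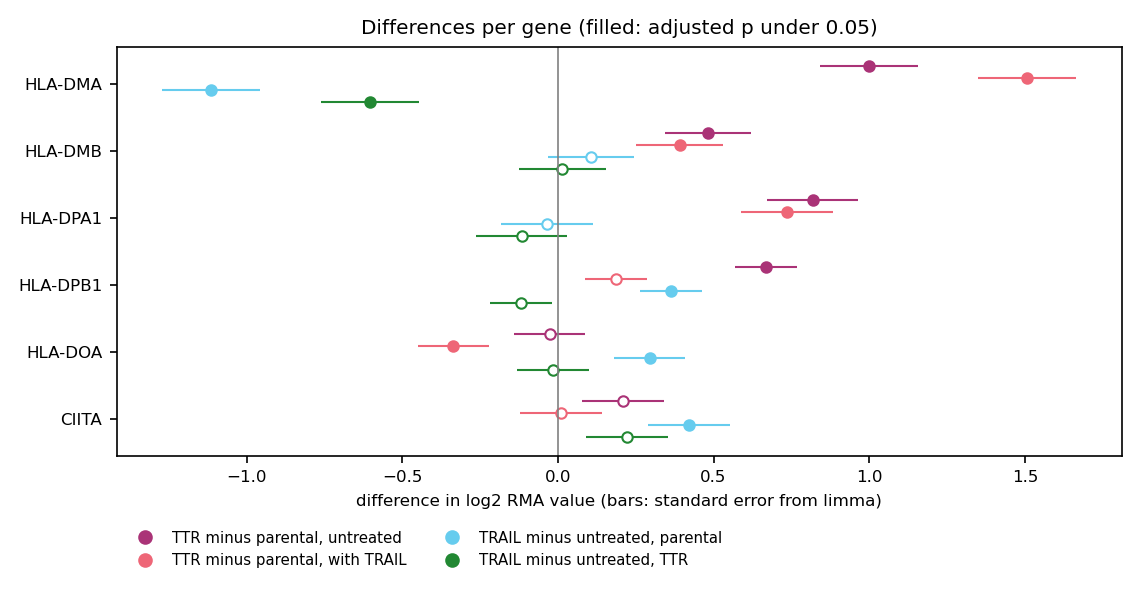
Difference in log2 level (horizontal axis) of each of the 6 genes (vertical axis) in the 4 pairwise comparisons, with bars of 1 standard error from limma. Filled points passed at an adjusted p under 0.05; HLA-DMA is filled in all 4 comparisons, at 1.00 and 1.51 between the lines and at -1.11 and -0.60 for TRAIL.

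In TTR cells, TRAIL also went with a lower HLA-DMA, and with no other call among the 6 genes. HLA-DMA arrays lay at 6.73 to 7.32 without TRAIL and at 6.28 to 6.61 with it, all of the second below all of the first. The mean fell by 0.60 ± 0.16, 1.52-fold, with an adjusted p of 0.035, where 2.55% of all genes were lower and 3.27% higher. The call was lost without array 2 (-0.59, adjusted p 0.111) or 3 (-0.46, 0.149) of untreated TTR cells, without array 1 (-0.59, 0.111) or 2 (-0.53, 0.155) of TTR cells with TRAIL, and with every feature tested (0.0671). Same-numbered TTR arrays deviated together, and with the number as a block on these 2 groups the adjusted p was 0.00807, while the count of genes called rose from 1072 to 2670.

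The other 5 genes had differences between -0.12 and 0.22 in TTR cells given TRAIL, with adjusted p of 0.369 to 0.972. CIITA lay at 3.75 to 4.04 with TRAIL and at 3.61 to 3.75 without, touching at the edge. Its difference was 0.22 ± 0.13 (adjusted p 0.369). The features naming HLA-DRA had differences of -0.46 to -0.43 and those naming the HLA-DRB genes of -0.65 to -0.57, and none passed (adjusted p 0.061 to 0.165). The feature annotated to CD74 and ROS1 went the other way, from 7.72 to 8.24 without TRAIL to 8.08 to 8.50 with it, and did not pass either (0.32 ± 0.14, adjusted p 0.237). With the replicate number as a block on the 2 TTR groups, 1 of the 3 features naming HLA-DRA (adjusted p 0.0486) and 1 of the 3 naming HLA-DRB genes (0.0424) passed, and the feature annotated to CD74 and ROS1 did not (0.0804). With the block over all 12 arrays all 3 HLA-DRB features passed (0.0323, 0.0408 and 0.0333) and no HLA-DRA feature did (0.0759 to 0.188). After centring without a block, 3 of these 6 features passed, with adjusted p of 0.0284, 0.0493 and 0.0491. After quantile normalization none of the 6 passed (adjusted p 0.0583 to 0.12). The feature annotated to HLA-DQB1 alone differed by -0.28 in TTR cells given TRAIL (adjusted p 0.154 over genes). It passed with the block on the 2 TTR groups (0.0486) and after centring (0.0349), but not after quantile normalization (0.142).

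Whether TRAIL acted differently in the lines was tested as the difference between the TRAIL effects. HLA-DPB1 passed, with 0.36 ± 0.10 in parental cells, -0.12 ± 0.10 in TTR cells and a difference of -0.48 ± 0.14 (adjusted p 0.0132), where 14.3% of all genes passed in that direction and 22.9% in the other. It did not pass after centring (-0.30, adjusted p 0.129) or after quantile normalization (-0.30, 0.123). HLA-DMA fell in both lines, and the difference of 0.51 ± 0.22 did not pass (adjusted p 0.0859). It passed after centring (0.69, adjusted p 0.0228), after quantile normalization (0.69, 0.0322), without array 1 of parental cells with TRAIL (0.65, 0.0291) and without array 3 of untreated TTR cells (0.65, 0.0269). For HLA-DOA the difference was -0.31 ± 0.16 (adjusted p 0.149), which passed without array 3 of TTR cells with TRAIL (-0.43, 0.0443). The remaining 3 genes had differences of -0.20 to -0.082. The 3 HLA-DRB features passed at -0.83 to -0.89, where 14.0% of all features were lower, but not after centring or quantile normalization. The feature annotated to CD74 and ROS1 differed by -0.40 ± 0.20 (adjusted p 0.154), and by -0.54 after quantile normalization (adjusted p 0.0497).

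The machinery around the class II genes was followed in lists of genes. The shares of all genes set beside their counts are those of the fit as deposited, without a block. Centring and the replicate block also changed the counts over all genes, which are given at the end. The DNA-binding factors of class II promoters are RFX5, RFXAP and RFXANK of the RFX complex, NFYA, NFYB and NFYC of NF-Y, and CREB1. Of these 7 measured genes 0 passed limma's test between the untreated lines (1 at an unadjusted p under 0.05), where the smallest p-values belonged to RFXANK (0.31, adjusted p 0.148) and NFYA (-0.16, adjusted p 0.37). With TRAIL 0 rose and 4 fell in parental cells (28.9% and 29.9% of all genes), led by NFYC (-1.01 ± 0.10, adjusted p 2.6e-07) and RFX5 (-0.77 ± 0.096, adjusted p 3.02e-06), followed by CREB1 and NFYB. The counts were 0 and 6 after centring and 1 and 5 after quantile normalization. In TTR cells 0 of 7 passed in limma (0 at an unadjusted p under 0.05). The difference between the lines passed for NFYC (0.89), RFX5 (0.65) and CREB1 (0.60), where 22.9% of all genes passed in that direction.

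Interferon gamma, which induces CIITA in most cell types, signals through the receptor chains IFNGR1 and IFNGR2 and is restrained by SOCS1 and SOCS3. Of 11 measured genes of this list 0 passed limma's test between the untreated lines (2 at an unadjusted p under 0.05), with SOCS3 (-0.36, adjusted p 0.0657) and IFNGR2 (-0.22, adjusted p 0.188) nearest. In parental cells given TRAIL 4 rose and 6 fell, where 28.9% of all genes were higher and 29.9% lower, and the counts were 3 and 6 after centring. SOCS1 rose by 4.10 ± 0.13 (adjusted p 4.81e-13), SOCS3 by 2.30 ± 0.11 (adjusted p 8.05e-11) and IRF1, a transcription factor that acts on the CIITA promoter, by 2.22 ± 0.10 (adjusted p 5.98e-11), while IFNGR1 fell by 1.77 ± 0.16 (adjusted p 7.42e-08). In TTR cells the rises were 1.09 ± 0.13 for SOCS1, 0.67 ± 0.11 for SOCS3 and 1.43 ± 0.10 for IRF1. There 3 of 11 were higher and 0 lower, where 3.27% of all genes were higher and 2.55% lower. With the replicate block on the 2 TTR groups 3 were higher and 1 lower, IFNGR1 (-0.37, adjusted p 0.0245). With the block over all 12 arrays 3 were higher and 0 lower. In the test of the difference between the lines 6 of 11 were higher and 3 lower, where 22.9% and 14.3% of all genes were. SOCS1 (-3.02 ± 0.18, adjusted p 4.09e-08) and SOCS3 (-1.62 ± 0.16, adjusted p 1.54e-06) were among the lower. IFNGR1 (1.40 ± 0.23, adjusted p 1.38e-04) was among the higher.

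Of 16 interferon gamma targets outside class II genes, 1 was higher and 0 lower in untreated TTR cells (3.64% and 3.47% of all genes). In limma 7 of them had an unadjusted p under 0.05, and 1 to 5 were called under the alternatives, 0 to 3 of them lower. That gene was GBP3, an interferon-induced GTPase, at 0.80 ± 0.13 (adjusted p 0.00107). With TRAIL 2 rose and 4 fell in parental cells, against 28.9% and 29.9% of all genes, and the list's median was 0.020, but -0.27 after centring and -0.13 after quantile normalization. The chemokine gene CXCL10 rose by 2.40 ± 0.17 and the adhesion molecule gene ICAM1 by 1.60 ± 0.18, while WARS1 and PSMB9 fell by 1.29 ± 0.11 and 1.07 ± 0.12. In TTR cells ICAM1 (1.48 ± 0.18) and CXCL10 (0.84 ± 0.17) rose. PSMB9 fell by 0.50 ± 0.12 (adjusted p 0.0229, and 0.0184 with the replicate block on the 2 TTR groups). The unblocked call was lost without array 2 or 3 of untreated TTR cells or array 1 or 2 of TTR cells with TRAIL. IFI35 was lower with that block (-0.49, adjusted p 0.00882) and after centring without it (-0.60, adjusted p 0.0295). It did not pass after quantile normalization (-0.47, adjusted p 0.143).

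Enzymes and regulators that process antigen or class II proteins in endosomes gave 1 higher and 1 lower of 13 between the untreated lines (4 at an unadjusted p under 0.05 in limma). Over all genes 3.64% were higher and 3.47% lower. CTSF, a cathepsin that can cut the invariant chain, was 0.52 ± 0.093 higher (adjusted p 0.00237), and IFI30, the thiol reductase that unfolds antigens in the endosome, was lower, by -0.66 ± 0.13 (adjusted p 0.00547). In parental cells given TRAIL 3 rose and 8 fell, and 0 and 10 after centring, where 28.9% and 29.9% of all genes rose and fell as deposited. MARCHF8, a ubiquitin ligase that removes class II molecules from the surface, fell by 1.47 ± 0.13, CTSH by 1.56 ± 0.16, SPPL2A, a protease that clears the last piece of CD74, by 1.58 ± 0.17 and LGMN by 0.82 ± 0.091. In TTR cells 0 of 13 passed in limma (3 at an unadjusted p under 0.05), or 3 lower after centring. None of those 3 passed after quantile normalization (adjusted p 0.0881 to 0.204). With the replicate block on the 2 TTR groups 2 were lower, CTSH (-0.48, adjusted p 0.0159) and IFI30 (-0.38, adjusted p 0.0398). With the block over all 12 arrays 1 of the 13 was lower.

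Class I presentation gave 0 higher and 1 lower of 10 between the untreated lines (3.64% and 3.47% of all genes), with 3 at an unadjusted p under 0.05 in limma. The lower gene was TAP2, a subunit of the peptide transporter, at -0.37 ± 0.10 (adjusted p 0.0358). That call was lost under 8 of 23 alternatives, among them leaving out array 1 or 2 of untreated parental cells, array 2 or 3 of untreated TTR cells or array 2 of TTR cells with TRAIL (adjusted p up to 0.176). Of 10 genes known to repress CIITA or to silence chromatin, 1 was higher and 0 lower in untreated TTR cells, against the same shares. It was PRDM1, a repressor of CIITA in plasma cells, at 1.24 ± 0.11 or 2.37-fold (adjusted p 2.27e-06). In the same comparison 1 of 11 genes for co-stimulatory and checkpoint ligands was higher, PDCD1LG2, the PD-L2 gene, at 0.70 ± 0.15 (adjusted p 0.00703), and 1 was lower, ICOSLG, by -0.36 ± 0.092 (adjusted p 0.0255), which was lost without array 1, 2 or 3 of untreated parental cells or array 1 or 3 of untreated TTR cells. Of the 5 measured receptor partners of CD74 and related genes 0 passed in limma (1 at an unadjusted p under 0.05), with CD44 at 0.33 (adjusted p 0.0792). In TTR cells given TRAIL 0 of the 10 class I genes and 0 of the 10 repressor and silencer genes passed. With the replicate block on the 2 TTR groups ERAP2 of the class I list was higher (0.30, adjusted p 0.0389). So were EED (0.38, 0.0461) and DNMT1 (0.44, 0.0193) of the repressor and silencer list. None of them passed after centring or quantile normalization without a block.

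Of 26 measured markers of antigen presenting and other blood cells, 0 passed limma's test between the untreated lines (0 at an unadjusted p under 0.05), and the smallest p-values were those of BLK (-0.24, adjusted p 0.371) and LYZ (-0.17, adjusted p 0.392). In parental cells given TRAIL 6 markers were higher and 1 lower, against 0 and 6 after centring, where 28.9% of all genes were higher and 29.9% lower as deposited. In TTR cells given TRAIL 0 passed in limma (1 at an unadjusted p under 0.05), and 1 with the replicate block, AIF1 (-0.29, adjusted p 0.0454). Levels per array were 3.43 to 3.55 in parental and 3.25 to 3.33 in TTR cells with TRAIL, and the part of these markers in the class II values was not tested.

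Most class II genes lie together on chromosome 6, and the stretch from HLA-DRA to HLA-DPB1 holds 32 genes in the RefSeq table. This stretch was chosen after values had been seen. Of its 9 measured genes outside the set, 0 were higher and 1 was lower in untreated TTR cells (TAP2, above). Over all genes 3.64% were higher and 3.47% lower. PSMB9, TAP1 and PSMB8, which lie between the HLA-DQ and HLA-DM genes, differed by 0.35 ± 0.12 (adjusted p 0.0949), 0.37 ± 0.16 (0.228) and 0.33 ± 0.20 (0.42). BRD2, a chromatin reader gene between HLA-DMA and HLA-DOA, differed by -0.19 ± 0.11 (adjusted p 0.408). With TRAIL in both lines 3 of the 9 were higher in TTR cells and 1 lower, where 28.0% and 26.4% of all genes were. The higher were PSMB9 (0.92, adjusted p 6.94e-06), TAP1 (0.73, 0.00125) and PSMB8 (0.72, 0.00591). BRD2 was the lower (-1.26, adjusted p 7.05e-08). With TRAIL BRD2 rose by 2.39 ± 0.11 in parental cells (adjusted p 4.43e-11) and by 1.32 ± 0.11 in TTR cells (adjusted p 9.39e-07), while HLA-DMA nearby fell in both lines.

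**Figure D4:**
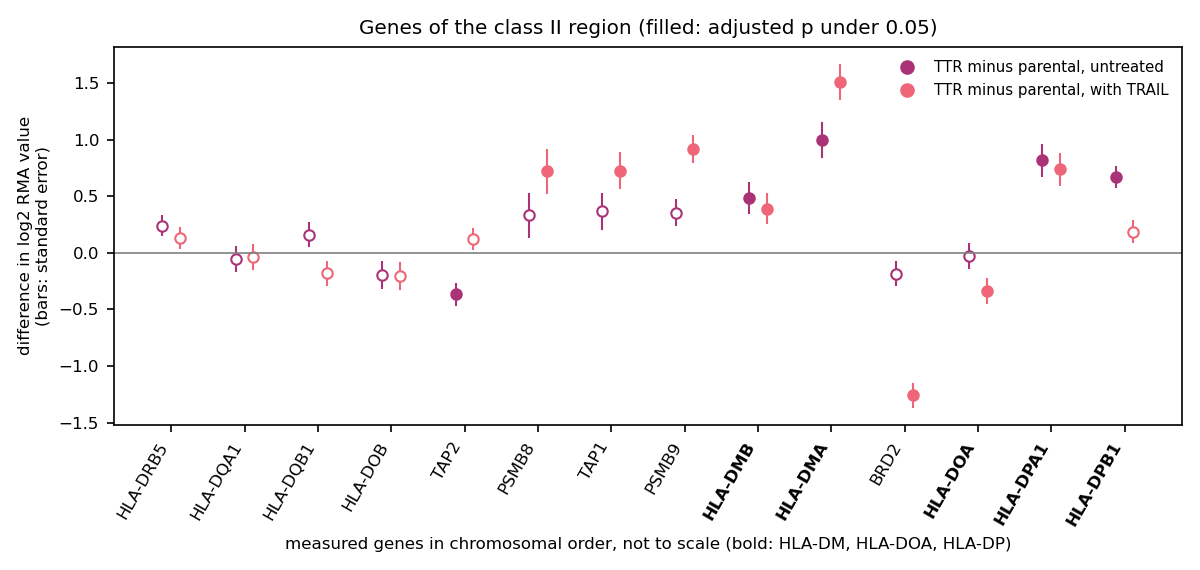
Difference in log2 level between TTR and parental cells (vertical axis, bars of 1 standard error) of the measured genes from HLA-DRB5 to HLA-DPB1 in chromosomal order (horizontal axis, not to scale), without and with TRAIL. Filled points passed at an adjusted p under 0.05; without TRAIL the 4 filled points above 0 are HLA-DMB, HLA-DMA, HLA-DPA1 and HLA-DPB1.

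HLA-DMA was the only one of the 6 genes whose group means spanned at least 1 log2 unit, at 2.11. Its order of means was parental with TRAIL at 4.93 ± 0.26, untreated parental at 6.04 ± 0.18, TTR with TRAIL at 6.43 ± 0.17 and untreated TTR at 7.04 ± 0.30 (SD, n = 3 each). The middle 2 did not overlap but came close, with the highest untreated parental array at 6.22 and the lowest TTR array with TRAIL at 6.28, and that pair was not tested. After centring each gene on its own mean, the 5 genes nearest to it over the 12 arrays were TOP6BL, TTC39C, BMP4, PLIN3 and RBM24, at root mean square differences of 0.122, 0.137, 0.179, 0.185 and 0.190 log2 units. TOP6BL, a gene of meiotic recombination, had means of 6.24, 5.05, 7.01 and 6.56 in untreated parental cells, parental cells with TRAIL, untreated TTR cells and TTR cells with TRAIL. BMP4 encodes a secreted ligand of the TGF-beta family, PLIN3 a lipid droplet coat protein and RBM24 an RNA-binding protein. The same 5 were nearest after centring of the arrays, and 3 of them after quantile normalization.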

How the data were processed

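RNA from 12 samples was measured on 1-colour Affymetrix arrays. The authors deposited log2 values, made by RMA in Affymetrix Power Tools per the submitters' processing notes. Its settings and the genome build are not given here. Of 33252 features, 19460 named 1 gene, 1754 several and 12038 none, per the platform annotation, which gave 18417 genes with no filter on low values. No arrays were identical (0 pairs).

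One limma fit (version 3.58.1, R 4.3.3) held all 12 arrays, with 1 mean per group and no block, and its moderated two-sided tests were adjusted over all genes by Benjamini and Hochberg. It had 8 residual and 7.87 prior degrees of freedom. With 3 arrays a group, exact permutation p-values are never under 0.1, so none were used. Features naming several genes were tested with all 33252. The script was tested on simulated data. Figures used matplotlib 3.10.9 in Python 3.11.15.

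Members and lists were chosen with earlier results of these data known. Named genes were all members, up to 4 called genes with the smallest p-values per list described (or 2 as values where none was called), the 5 nearest to a member spanning 1 log2 unit, marker genes of the line, and genes of the class II region. ESR1, PGR, BRD2, PSMB8, TAP1 and PSMB9 of these, and the genes on shared features, were named outside the rule after values had been seen, as were genes called only with a replicate block.

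Same-numbered arrays share a code in their descriptions that the labels do not explain. Their deviations correlated at 0.32, 0.15 and 0.40 between the TTR groups, so the numbers were taken to pair those. They correlated at 0.107, 0.056 and 0.059 between the parental groups, and between the lines at 0.095, -0.033 and 0.37 without TRAIL and 0.104, -0.0075 and 0.14 with it.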

Additional observations from a re-analysis of the deposited data

Results flagged for a closer look

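HLA-DPB1 differed between the lines in its response to TRAIL, by -0.48 ± 0.14 on the log2 scale in limma's test of the difference (adjusted p 0.0132), with 0.36 in parental and -0.12 in TTR cells. The array medians averaged 4.59 in parental cells with TRAIL and 4.30 without, and after centring on them the difference was -0.30 (adjusted p 0.129).

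A group of features outside the gene-level comparisons, because they are annotated to several genes, was higher in untreated TTR cells than in the untreated parental control. The feature annotated to CD74 and ROS1 was 1.58 higher. The 3 annotated to HLA-DRA and HLA-DQA1 were 1.95, 2.37 and 2.05 higher. The 3 annotated to HLA-DRB1, HLA-DRB3, HLA-DRB4, HLA-DRB5, HLA-DRB6 and HLA-DQB1 were 2.44, 2.37 and 2.31 higher. All 7 stayed called after centring (1.60 to 2.46) and after quantile normalization (1.52 to 2.34). Which of the annotated genes gave the signal was not tested. Not all shared features were higher. Those annotated to HLA-DQA2 and HLA-DQA1, or to HLA-DQB2 and HLA-DQB1, differed by -0.080 to 0.15 and did not pass.

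The same 3 HLA-DRB features also responded to TRAIL unequally in the lines, with tested differences of -0.83, -0.83 and -0.89 (adjusted p 0.0499, 0.035 and 0.0259). None of the 3 passed after centring (adjusted p 0.127, 0.0963 and 0.0697), and each lost the call without 6 to 8 of the 12 arrays left out in turn.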

How the results depend on the processing

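Of 650 values of single members under alternatives, 600 kept their direction and their side of the threshold, and no called value reversed. The members called for TRAIL in parental cells went from 4 to 1 after centring and to 1 after quantile normalization, and ranged from 2 to 4 with 1 array left out (2 without untreated parental array 3). For TRAIL in TTR cells the count went from 1 to 0 with every feature tested and ranged from 0 to 1 with 1 array left out. For the difference between the lines it ranged from 1 to 2, and for TTR against parental cells from 3 to 4 without and with TRAIL.

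Over all genes, the 1310 calls between the untreated lines became 2386 with array weights, 807 or 829 without untreated parental array 1 or 2, and 782 without untreated TTR array 2. With every feature tested, the 10017 calls between the lines with TRAIL became 15367 and the 10827 for TRAIL in parental cells 17193. The 1072 for TRAIL in TTR cells became 2391 after centring, 2670 with a replicate block, 3199 with array weights, 1709 without the parental arrays given TRAIL, and 450 or 542 without untreated TTR array 2 or 3 and 508, 379 or 693 without TTR array 1, 2 or 3 with TRAIL. Centring moved the split of higher and lower calls from 5319 and 5508 to 2328 and 8608 for TRAIL in parental cells (3524 and 5783 after quantile normalization), from 602 and 470 to 448 and 1943 in TTR cells, from 5164 and 4853 to 6839 and 2391 between the lines with TRAIL, and from 4224 and 2628 to 5410 and 1275 for the difference.

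Whether the numbers pair the arrays of the other groups is not known, and number 3 correlated at 0.37 between the untreated lines. There a replicate block on the 2 groups compared ended the HLA-DMB call between the untreated lines (adjusted p 0.0679), the block over 12 arrays kept it (0.0328), and no other member's call changed with a block. The block on the features naming several genes was added after seeing the data. Arrays give no detection call here, so small differences at levels near 3 to 4 are limited by background.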
